A study of Mus musculus with 12 samples.

Results

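The genes described here encode the constitutive proteasome, the form of the complex that most cells make without an inflammatory signal. They are the 36 of 24328 gene symbols in the deposited count table that read Psma, Psmb, Psmc or Psmd followed by a number, without the immunoproteasome subunits Psmb8, Psmb9 and Psmb10. The choice used symbols and no measured value, though it was made with earlier results of these data known. It took in 7 alpha and 7 beta subunits of the 20S core, 9 genes of the 19S base, 8 genes of the 19S lid, 3 chaperones that assemble the base and 2 tissue-restricted core subunits. RNA came from microglia, the macrophages that reside in the brain, which had been isolated by FACS out of wild-type (WT) Balb/c mice, with 4 mice and 4 libraries in each of 3 groups. Allogeneic recipients were lethally irradiated, given bone marrow (5000000 cells) with 300000 T cells from allogeneic donors, and perfused on day 14, which the labels call the peak of GvHD (graft-versus-host disease, in which transplanted T cells attack the recipient's tissues). Syngeneic recipients had the same irradiation, cell numbers and day, with syngeneic cells. Control mice were untransplanted. The sources used here do not give the donor strain or the age and sex of the mice, and irradiation and transplantation cannot be told apart in the comparison of syngeneic with control mice.

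The proteasome degrades most short-lived and misfolded proteins of the cell and supplies the peptides that MHC class I molecules display. Its 20S core is a barrel of outer alpha rings, which gate the entrance, and inner beta rings, which hold the proteolytic sites. The 19S regulatory particle caps the barrel: a lid removes ubiquitin from bound proteins, and a base with a ring of ATPases unfolds them and threads them into the core. Microglia and other macrophages exposed to interferon also make the immunoproteasome, in which Psmb8, Psmb9 and Psmb10 take the places of the catalytic subunits Psmb5, Psmb6 and Psmb7.

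Allogeneic libraries held 35559202 to 42641198 counts each, syngeneic libraries 36422729 to 46126118 and control libraries 32652208 to 45439607. Levels are CPM, counts scaled to library size, with sizes adjusted by TMM, a trimmed mean of the ratios between libraries. Fold changes are on the log2 scale from edgeR's quasi-likelihood test over 12695 genes, and rose, fell and called refer to a Benjamini-Hochberg adjusted p under 0.05. The 12 microglia markers in the table summed to 36320 to 37860 CPM in allogeneic, 48860 to 51880 CPM in syngeneic and 50520 to 57820 CPM in control libraries. The 8 choroid plexus markers, led by Ttr, summed to 344 to 614 CPM in allogeneic, 1104 to 1948 CPM in syngeneic and 12.9 to 96.8 CPM in control libraries. The 8 monocyte markers, led by Plac8 and Fn1, summed to 95.1 to 139 CPM in allogeneic, 14.6 to 32.5 CPM in syngeneic and 8.64 to 15.2 CPM in control libraries. Of the defining markers, Ly6c2 stood at 0.883 to 2.86 CPM in allogeneic, 0 to 0.466 CPM in syngeneic and 0 to 0.133 CPM in control libraries, and Ccr2 at 1.72 to 7.42 CPM in allogeneic, 6.02 to 10.02 CPM in syngeneic and 6.99 to 12.3 CPM in control libraries. The 8 T cell markers summed to at most 5.81 CPM in any library. In bulk RNA, fewer cells of a type and less RNA per cell cannot be told apart, and the part of these marker levels in the results below was not tested.

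Proteasome transcripts took a larger share of the library in both transplanted groups, and the largest in allogeneic microglia. The 36 members held 0.568 to 0.617% of all counts in allogeneic libraries, 0.540 to 0.562% in syngeneic libraries and 0.396 to 0.417% in control libraries, with no overlap between groups. Their summed level averaged 6769 ± 401 CPM in allogeneic, 5488 ± 131 CPM in syngeneic and 3565 ± 173 CPM in control libraries (SD, n = 4 each). Psmb11, the beta subunit of the thymus, had a single count in 1 control library and was not tested, which left 35 members that passed the filter on low counts.

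In allogeneic against syngeneic microglia, 15 of the 35 members rose and 1 fell, where 10.1% of all genes tested rose and 6.38% fell. The median log2 fold change of the members was 0.28, beside -0.01 over all genes. In syngeneic against control microglia, 28 rose and 1 fell, where 26.4% of all genes rose and 25.6% fell, with a median of 0.62 beside -0.03. In allogeneic against control microglia, 30 rose and 2 fell, where 28.2% of all genes rose and 29.1% fell, with a median of 0.86 beside -0.07. Calls in either direction covered 16.5% of all genes in allogeneic against syngeneic, 52.1% in syngeneic against control and 57.3% in allogeneic against control microglia. The first and second comparisons share the syngeneic libraries, and the second and the third share the control libraries.

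Ranges of single libraries gave a similar count. For 18 members all 4 allogeneic libraries lay above all 4 syngeneic ones, as for 12.6% of all genes, and for none did all 4 lie below, as for 8.1% of all genes. For 27 members the syngeneic libraries all lay above the control ones (24.6% of all genes) and for none all below (25.5%). For 30 members the allogeneic libraries all lay above the control ones (26.2%) and for 1, Psmd3, all below (27.7%).

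These counts moved with the scaling of the libraries. With an offset fitted over all genes for GC content and length of the transcript (the GC and length offset), 6 members rose and none fell in allogeneic against syngeneic microglia (8.94% of all genes rose and 6.31% fell), with a median of 0.10; the 6 were Psma2, Psma3, Psma4, Psma5, Psmb1 and Psmd8. With the same offset, 22 rose and 2 fell in syngeneic against control microglia (median 0.32), where 23.9% of all genes rose and 22.3% fell. In allogeneic against control microglia the offset gave 22 higher and 2 lower (median 0.31), where 25.4% of all genes rose and 26.2% fell. Scaling by library totals alone gave 7 higher and 1 lower in allogeneic against syngeneic microglia, where 6.65% of all genes rose and 16.6% fell. It also moved the median of all genes to -0.22, and the members' median was then 0.08.

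**Figure D1:**
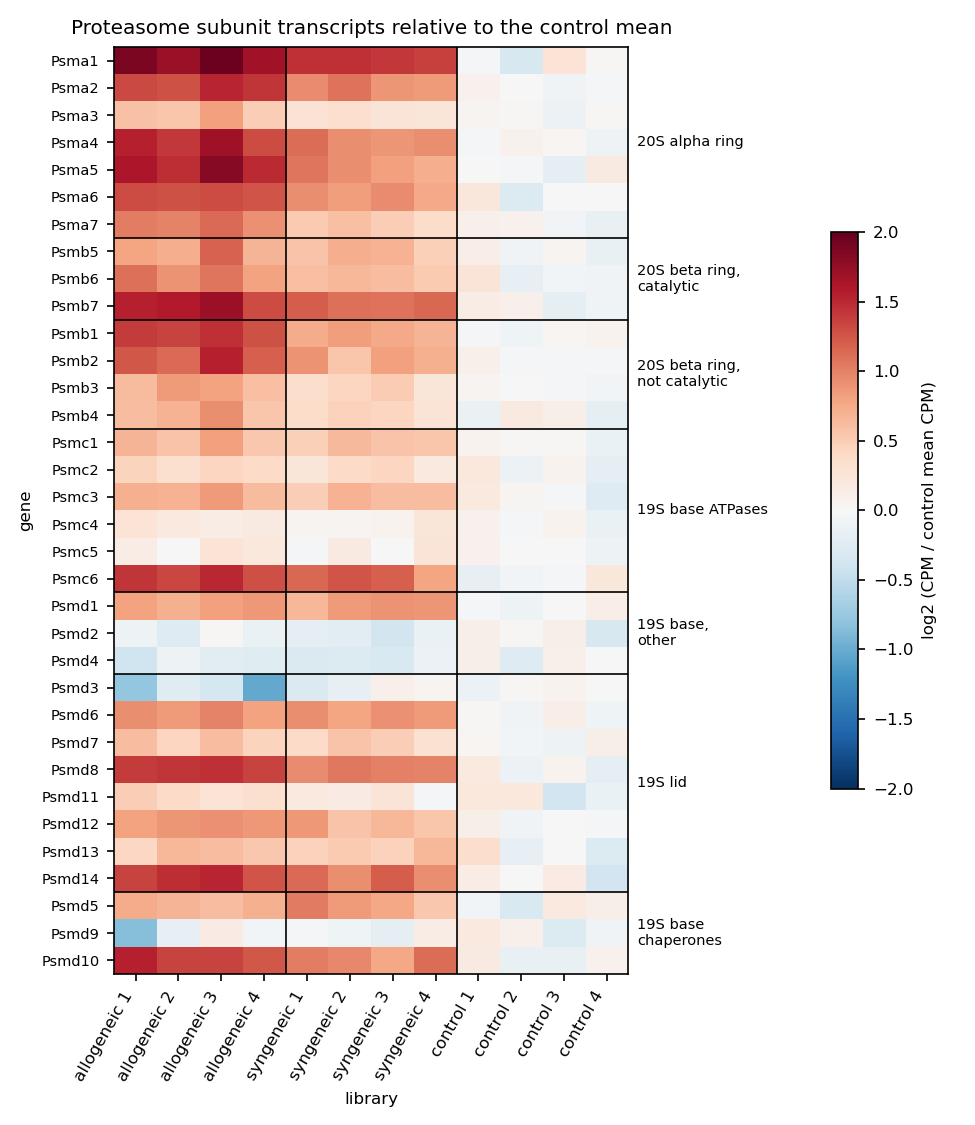
Heat map of 34 proteasome genes (rows, grouped by place in the complex; Psma8 and Psmb11 are not drawn) in the 12 libraries (columns). Colour is log2 of the gene's CPM over its mean CPM in the 4 control libraries, red for higher and blue for lower. The 20S rows are reddest in the 4 allogeneic libraries, while many 19S rows, such as Psmc1 and Psmd6, look alike in allogeneic and syngeneic libraries, and Psmd3 is blue in the allogeneic libraries.

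The subunits of the alpha ring form the gate through which substrates enter the core. All 7 alpha genes rose in allogeneic against syngeneic microglia, by 0.34 to 0.71 on the log2 scale, and in each of the 7 the 4 allogeneic libraries lay above the 4 syngeneic ones. The 7 also rose in syngeneic against control microglia, by 0.28 to 1.43, and in allogeneic against control microglia, by 0.62 to 1.81. In allogeneic against syngeneic microglia 4 of the 7 were called with the GC and length offset, and 4 with library totals only, where Psma1, Psma3 and Psma6 lost their calls (0.18, 0.13 and 0.21). In syngeneic against control microglia the offset gave 5 higher and 1 lower.

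Psma5 had the largest difference between the transplanted groups. Its level was 351, 316, 402 and 320.5 CPM in allogeneic libraries, 239, 217, 201 and 189.5 CPM in syngeneic libraries and 114, 112, 101 and 129 CPM in control libraries. The 3 groups were fully separated. The difference was 0.71 in allogeneic against syngeneic microglia (SE 0.10, edgeR adjusted p = 2.4e-05) and 0.89 in syngeneic against control microglia (SE 0.10, edgeR adjusted p = 4.09e-07). With the GC and length offset the first was 0.50 (edgeR adjusted p = 0.000544) and the second 0.48. About 4.54% of the exon bases of Psma5 overlap an antisense gene, and the strand setting of the counting is not given, so a share of its reads is uncertain.

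Psma1 had the largest difference of any member in syngeneic against control microglia. It stood at 356, 318, 374 and 309.6 CPM in allogeneic libraries, 266, 265, 257 and 249 CPM in syngeneic libraries and 93.6, 77.6, 117 and 97.7 CPM in control libraries. Every syngeneic library lay above the control range, and every allogeneic library lay above the syngeneic range. The syngeneic against control difference was 1.43 (SE 0.10, edgeR adjusted p = 1.85e-09), and the allogeneic against syngeneic difference was 0.39 (SE 0.10, edgeR adjusted p = 0.0107). With the GC and length offset the first was 0.76 and still called, while the second was 0.14 and no longer called (edgeR adjusted p = 0.417).

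Psma3 differed least within the ring. It averaged 256 ± 25.8 CPM in allogeneic, 202 ± 5.91 CPM in syngeneic and 166 ± 8.24 CPM in control libraries (SD, n = 4 each). Its syngeneic against control difference of 0.28 (edgeR adjusted p = 0.00509) turned to -0.20 with the GC and length offset (edgeR adjusted p = 0.0316), so its direction there depends on that choice. Its allogeneic against syngeneic difference of 0.34 was 0.27 with the offset and was called in both. Psma2, Psma4, Psma6 and Psma7 rose by 0.45, 0.53, 0.41 and 0.52 in allogeneic against syngeneic microglia, and with the offset Psma6 and Psma7, at 0.12 and 0.20, were no longer called. These 4 rose in syngeneic against control microglia by 0.94, 0.97, 0.87 and 0.50, and Psma7 alone of the 4 lost its call with the offset (0.0070).

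The 3 catalytic beta subunits cleave after different residues: Psmb5 carries the chymotrypsin-like site, Psmb6 the caspase-like site and Psmb7 the trypsin-like site. Psmb6 and Psmb7 rose in allogeneic against syngeneic microglia and Psmb5 did not pass the test, while all 3 rose in syngeneic against control microglia. Psmb6 was at 358, 312, 352 and 291 CPM in allogeneic libraries, 254, 264, 257 and 240.4 CPM in syngeneic libraries and 199, 149, 161 and 159 CPM in control libraries, without overlap. Its differences were 0.37 in allogeneic against syngeneic microglia (SE 0.090, edgeR adjusted p = 0.00699) and 0.60 in syngeneic against control microglia (SE 0.091, edgeR adjusted p = 1.95e-05).

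Psmb7 was at 177, 181, 197 and 149 CPM in allogeneic libraries, 139, 129.5, 128 and 135 CPM in syngeneic libraries and 66.9, 64.7, 53.1 and 57.2 CPM in control libraries. These ranges did not overlap either. Its differences were 0.41 in allogeneic against syngeneic microglia (SE 0.10, edgeR adjusted p = 0.00627) and 1.14 in syngeneic against control microglia (SE 0.10, edgeR adjusted p = 2.4e-08). With the GC and length offset the allogeneic against syngeneic differences of Psmb6 and Psmb7 were 0.040 and 0.16, and neither was called. About 11.8% of the exon bases of Psmb7 overlap Nek6 on the other strand.

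Psmb5 was the least abundant of the 3. It had 44.2, 42.3, 57.7 and 40.9 CPM in allogeneic libraries, 37.9, 42.03, 41.1 and 35.6 CPM in syngeneic libraries and 28.01, 24.3, 26.6 and 23.1 CPM in control libraries. Allogeneic and syngeneic libraries overlapped, and both lay above every control library. Its allogeneic against syngeneic difference was 0.24 with a 95% interval of -0.024 to 0.51 (edgeR adjusted p = 0.265), and -0.039 with the GC and length offset. Its syngeneic against control difference was 0.62 (SE 0.14, edgeR adjusted p = 0.000891).

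The constitutive catalytic subunits were set against their interferon-inducible counterparts within each library. Scaling a whole library does not change such a ratio. The GC and length offset differs between genes and was not applied to it. Psmb8 counts over Psmb5 counts gave 13.9, 14.6, 12.3 and 13.9 in allogeneic libraries, 5.38, 5.17, 5.32 and 5.87 in syngeneic libraries and 5.69, 6.17, 5.49 and 7.68 in control libraries. Psmb9 over Psmb6 gave 0.466, 0.611, 0.614 and 0.539 in allogeneic, 0.218, 0.227, 0.229 and 0.222 in syngeneic and 0.254, 0.317, 0.268 and 0.2397 in control libraries. Psmb10 over Psmb7 gave 2.43, 2.29, 2.57 and 2.62 in allogeneic, 1.35, 1.55, 1.53 and 1.43 in syngeneic and 2.41, 1.85, 2.57 and 2.38 in control libraries. These are count ratios, not ratios of molecules, since the transcripts differ in length. Of the 3381 exon bases of Psmb8, 498 overlap the antisense gene Gm20496. Of the 3660 exon bases of Psmb9, 212 overlap Tap1 on the other strand. The strand setting of the counting is not given, so a share of the reads of both genes is uncertain.

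All 3 ratios were higher in allogeneic than in syngeneic libraries, without overlap: the immunoproteasome member of each pair differed more than the constitutive one. On the log2 scale the differences in means were 1.33 for Psmb8/Psmb5, 1.31 for Psmb9/Psmb6 and 0.76 for Psmb10/Psmb7 (two-sided exact permutation p = 0.0286 for each, the smallest that 4 against 4 allows; 0.0367 after Benjamini-Hochberg adjustment over 9 tests). In syngeneic against control libraries the differences were negative. They were -0.19 for Psmb8/Psmb5 (exact permutation p = 0.143, adjusted 0.161), -0.26 for Psmb9/Psmb6 and -0.64 for Psmb10/Psmb7 (exact permutation p = 0.0286 and adjusted 0.0367 for both). With the GC and length offset, Psmb8 rose by 0.68 there and Psmb5 by 0.32, and Psmb9 rose by 0.39 and Psmb6 by 0.22. The sign for these pairs thus depends on that choice. Psmb10 and Psmb7 rose by 0.59 and 0.66 with the offset. In allogeneic against control libraries, Psmb8/Psmb5 and Psmb9/Psmb6 were higher by 1.14 and 1.05 (exact permutation p = 0.0286, adjusted 0.0367), while Psmb10/Psmb7 differed by 0.12 (exact permutation p = 0.4, adjusted 0.4). For Psmb10/Psmb7, allogeneic and control libraries overlapped and syngeneic libraries lay below both. With the offset, Psmb10 rose by 1.62 and Psmb7 by 0.82 in allogeneic against control microglia.

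**Figure D2:**
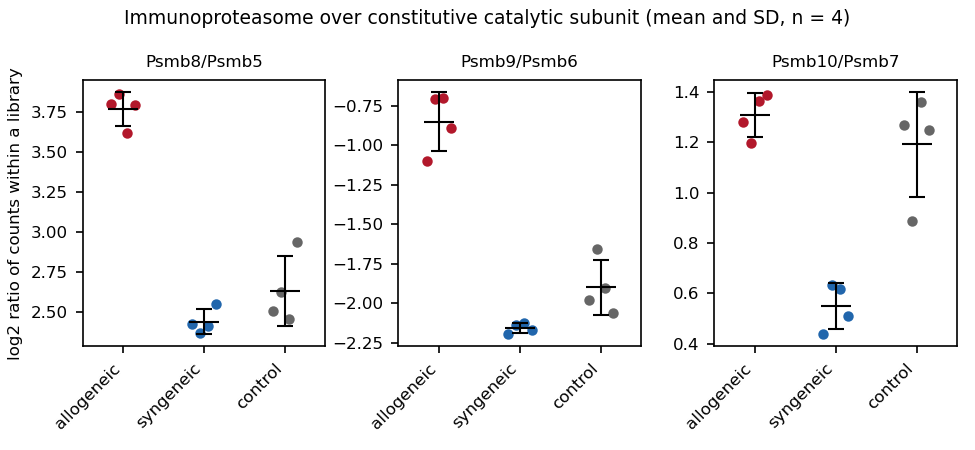
Log2 ratio of the counts of each immunoproteasome catalytic subunit to those of its constitutive counterpart (vertical axis, a panel per pair with its own scale) in allogeneic, syngeneic and control libraries. Points are libraries, and bars show the mean and SD (n = 4). The 4 allogeneic points lie above all syngeneic points in every panel, and in the Psmb10/Psmb7 panel they overlap the control points.

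The sequences just before the annotated starts of 5 of these genes are printed because the constitutive and inducible catalytic subunits moved to different extents, and Psma1 had the largest syngeneic against control difference. They are the last 150 of the 250 bases before each start in RefSeq (GRCm38.p6), written 5′ to 3′ on the gene's strand. Capitals mark matches to any of 5 motifs searched on both strands over 250 bases: TGACNNNGC (core of an antioxidant response element, the kind of site that Nfe2l1 and Nfe2l2 recognise), CCAAT (the box bound by the factor NF-Y), GGGCGG (a GC box), TTCNNNGAA (the palindrome recognised by STAT factors) and the interferon-stimulated response element.
Psmb5 (chr14:54617996-54618145, minus strand): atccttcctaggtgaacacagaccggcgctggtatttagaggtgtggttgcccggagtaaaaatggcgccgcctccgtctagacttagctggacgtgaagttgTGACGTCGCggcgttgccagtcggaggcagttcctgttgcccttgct
Psmb6 (chr11:70525207-70525356, plus strand): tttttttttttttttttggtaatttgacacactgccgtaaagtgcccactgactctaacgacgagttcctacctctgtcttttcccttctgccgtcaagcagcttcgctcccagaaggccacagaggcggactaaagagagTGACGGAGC
Psma1 (chr7:114276117-114276266, minus strand): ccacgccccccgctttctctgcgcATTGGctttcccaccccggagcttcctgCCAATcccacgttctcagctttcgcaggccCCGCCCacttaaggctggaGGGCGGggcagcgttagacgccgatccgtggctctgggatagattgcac
Psmb8 (chr17:34198045-34198194, plus strand): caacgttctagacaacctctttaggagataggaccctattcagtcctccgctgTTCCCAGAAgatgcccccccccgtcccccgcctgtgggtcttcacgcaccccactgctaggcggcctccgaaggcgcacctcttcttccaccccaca
Psmb9 (chr17:34187331-34187480, minus strand): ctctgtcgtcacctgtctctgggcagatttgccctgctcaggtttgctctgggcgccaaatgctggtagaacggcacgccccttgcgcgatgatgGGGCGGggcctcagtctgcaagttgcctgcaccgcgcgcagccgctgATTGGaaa
The match to TGACNNNGC begins 47 bases before the start in Psmb5 and 9 bases before it in Psmb6. Psma1 shows 2 CCAAT boxes and 2 GC boxes, the immunoproteasome gene Psmb8 shows a TTCNNNGAA match, and Psmb9 shows a GC box and a CCAAT box. The window of Psmb10, the third inducible subunit, holds no match to any of the 5 motifs and is not printed. Psmb7, the third constitutive catalytic subunit, had no window and was not searched.

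Of the 36 members, 29 had such a window. TGACNNNGC was found in 5 of the 29 (17.2%: Psmb5, Psmb6, Psmc6, Psmd9 and Psmd12), beside 10.1% of all 27025 RefSeq promoter windows of the same length. CCAAT was found in 12 (41.4%, beside 34.5%) and GGGCGG in 17 (58.6%, beside 32.9%). The interferon-stimulated response element was found in 3 (10.3%, beside 3.04%: Psmb3, Psmd4 and Psmd9), and TTCNNNGAA in none of the 29, beside 7.18% of all windows. A match describes letters in the window and is not evidence of a bound factor.

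The 4 beta subunits without a proteolytic site complete the inner rings. Psmb1, Psmb2 and Psmb3 rose in allogeneic against syngeneic microglia, Psmb4 did not pass the test, and all 4 rose in syngeneic against control microglia. Psmb1 was at 392, 380.04, 409 and 358 CPM in allogeneic libraries, 248, 265, 251 and 239 CPM in syngeneic libraries and 146, 141, 153 and 156 CPM in control libraries. The 3 groups did not overlap. The differences were 0.62 in allogeneic against syngeneic microglia (SE 0.068, edgeR adjusted p = 1.83e-06) and 0.75 in syngeneic against control microglia (SE 0.068, edgeR adjusted p = 4.21e-08). With the GC and length offset they were 0.49 and 0.27, both called.

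Psmb2 and Psmb3 rose by 0.54 and 0.34 in allogeneic against syngeneic microglia, but with the GC and length offset these differences were 0.19 and -0.029 and were not called. Their syngeneic against control differences of 0.75 and 0.39 were 0.19 and -0.087 with the offset, again not called, and that of Psmb3 changed sign. Psmb4 had 64.4, 68.1, 79.96 and 61.7 CPM in allogeneic libraries, 54.3, 57.9, 56.5 and 50.8 CPM in syngeneic libraries and 38.3, 47.7, 45.6 and 36.98 CPM in control libraries. All 4 allogeneic libraries lay above the syngeneic ones, yet its difference of 0.32 was not called (edgeR adjusted p = 0.0738), while DESeq2 called it higher. Between syngeneic and control microglia Psmb4 rose by 0.38 (edgeR adjusted p = 0.0114); with the offset the difference was 0.10 and was not called.

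In the 19S base, none of the 9 genes was called in allogeneic against syngeneic microglia, where 16.5% of all genes were. In syngeneic against control microglia 5 rose and 1 fell, where 26.4% of all genes rose and 25.6% fell. The 9 allogeneic against syngeneic log2 fold changes ran between -0.02 and 0.28, and their 95% intervals lay between -0.19 and 0.49. Psmc6, at 0.28, was called higher there by DESeq2 and by limma-voom. The 6 ATPases Psmc1 to Psmc6 form the ring that unfolds substrates. Of these, Psmc1, Psmc2, Psmc3 and Psmc6 rose in syngeneic against control microglia by 0.57, 0.32, 0.60 and 1.11; Psmc4 and Psmc5 had differences of 0.11 and 0.11 that were not called. With the GC and length offset Psmc2 was at 0.11 and lost its call.

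Psmc6 had the largest difference of the ATPases. It was at 227, 212, 239 and 207 CPM in allogeneic libraries, 188, 201, 193 and 146 CPM in syngeneic libraries and 75.4, 81.3, 82.5 and 98.2 CPM in control libraries. The 3 groups did not overlap. The syngeneic against control difference was 1.11 (SE 0.11, edgeR adjusted p = 7.45e-08), and 0.45 with the GC and length offset. Psmc4 was called higher in allogeneic against control microglia at a difference of 0.19 (edgeR adjusted p = 0.0397), which turned to -0.17 when only library totals were used and lost its call when any of 5 libraries was left out (allogeneic 1, 2 or 4, control 2 or 4; edgeR adjusted p = 0.0568 to 0.136).

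The other 3 genes of the base, the large scaffolds Psmd1 and Psmd2 and the ubiquitin receptor Psmd4, went different ways. Psmd1 was at 212, 198, 214 and 220.05 CPM in allogeneic libraries, 192, 217, 225 and 223 CPM in syngeneic libraries and 118, 113, 120.4 and 132 CPM in control libraries. Allogeneic and syngeneic libraries overlapped fully and all lay above the control libraries (0.83 in syngeneic against control microglia, SE 0.078, edgeR adjusted p = 6.75e-08). Psmd4 was at 82.9, 101, 92.9 and 92.5 CPM in allogeneic libraries, 89.4, 90.5, 88.1 and 101 CPM in syngeneic libraries and 119, 91.4, 116 and 109 CPM in control libraries.

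The ranges of Psmd4 overlapped, since control 2 lay among the transplanted mice. It was called lower in syngeneic against control microglia at -0.24 (edgeR adjusted p = 0.0493) and in allogeneic against control microglia at -0.24 (edgeR adjusted p = 0.0473). Each call was lost when any of 9 libraries was left out (edgeR adjusted p = 0.0514 to 0.133 and 0.0546 to 0.137); only the omission of allogeneic 1, syngeneic 4 or control 2 kept the first, and only that of allogeneic 2, syngeneic 4 or control 2 the second. Psmd2 averaged 143 ± 11.4 CPM in allogeneic, 133 ± 9.26 CPM in syngeneic and 155 ± 21.3 CPM in control libraries and was not called in any comparison; without control 4, its lowest control library, it was called lower in syngeneic against control microglia at -0.32 (edgeR adjusted p = 0.0064) and in allogeneic against control microglia at -0.22 (edgeR adjusted p = 0.0481).

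In the lid, whose subunits carry and surround the deubiquitinase Psmd14, 6 of 8 genes rose in syngeneic against control microglia, and 2 rose and 1 fell in allogeneic against syngeneic microglia. Over all genes, 26.4% rose in syngeneic against control microglia, and 10.1% rose and 6.38% fell in allogeneic against syngeneic microglia. Psmd8 was at 322, 329, 337 and 310.2 CPM in allogeneic libraries, 235, 254, 246 and 242 CPM in syngeneic libraries and 139, 113, 128 and 107 CPM in control libraries. The 3 groups were fully separated. The differences were 0.41 in allogeneic against syngeneic microglia (SE 0.080, edgeR adjusted p = 0.00108) and 1.004 in syngeneic against control microglia (SE 0.080, edgeR adjusted p = 8.03e-09), and both were called with the GC and length offset at 0.30 and 1.05.

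Psmd14, which cuts ubiquitin chains from substrates, averaged 188 ± 15.8 CPM in allogeneic, 148 ± 15.02 CPM in syngeneic and 70.96 ± 11.7 CPM in control libraries (SD, n = 4 each). Its syngeneic against control difference was 1.06 (edgeR adjusted p = 4.1e-07). The allogeneic against syngeneic difference of 0.35 was called at an edgeR adjusted p of 0.0432, and was lost without any of 7 libraries (allogeneic 1, 2 or 3, syngeneic 1, 2 or 4, or control 2; edgeR adjusted p = 0.0599 to 0.14) and with the GC and length offset (0.17). Psmd6, Psmd7, Psmd12 and Psmd13 rose in syngeneic against control microglia by 0.87, 0.44, 0.67 and 0.53.

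Psmd3, a scaffold subunit of the lid, was the only member called lower in allogeneic against syngeneic microglia. It had 19.7, 28.4, 26.3 and 16.6 CPM in allogeneic libraries, 27.6, 30.01, 36.03 and 35.2 CPM in syngeneic libraries and 31.1, 34.2, 35.4 and 34.01 CPM in control libraries. Allogeneic 1 and allogeneic 4 were the low libraries, and allogeneic 2 lay within the syngeneic range. The difference was -0.50 in allogeneic against syngeneic microglia (SE 0.17, edgeR adjusted p = 0.0477) and -0.57 in allogeneic against control microglia (SE 0.17, edgeR adjusted p = 0.00733). The first was lost without any of 8 libraries (allogeneic 1 or 4, syngeneic 2, 3 or 4, control 1, 3 or 4; edgeR adjusted p = 0.0548 to 0.137), and the second turned to 0.12 with the GC and length offset.

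The 5 other lid genes were not called in allogeneic against syngeneic microglia, with log2 fold changes of 0.02 to 0.22 and 95% intervals between -0.20 and 0.46. Among them, Psmd12 was called at 0.27 without syngeneic 1 (edgeR adjusted p = 0.0364). Psmd11 had a syngeneic against control difference of 0.15 that was not called (edgeR adjusted p = 0.315) and an allogeneic against control difference of 0.37 that was (edgeR adjusted p = 0.0142), though not without control 3 (edgeR adjusted p = 0.0608).

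The 3 chaperones of the base, which hold ATPases in place during assembly and leave before the particle is complete, differed among themselves. Psmd10, also known as gankyrin, was at 80.5, 70.3, 70.01 and 65.2 CPM in allogeneic libraries, 55.7, 53.6, 46.8 and 59.8 CPM in syngeneic libraries and 31.3, 24.7, 24.7 and 29.2 CPM in control libraries. The 3 groups did not overlap. Its differences were 0.41 in allogeneic against syngeneic microglia (SE 0.12, edgeR adjusted p = 0.0258) and 0.97 in syngeneic against control microglia (SE 0.12, edgeR adjusted p = 2.31e-06). The first was lost without allogeneic 1, syngeneic 2 or syngeneic 3 (edgeR adjusted p = 0.0579 to 0.0912) and with the GC and length offset (0.20).

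Psmd5 averaged 97.1 ± 3.19 CPM in allogeneic, 105 ± 15.01 CPM in syngeneic and 60.3 ± 8.81 CPM in control libraries; it rose in syngeneic against control microglia by 0.81 (edgeR adjusted p = 1.45e-05). Psmd9 averaged 20.3 ± 5.49 CPM in allogeneic, 22.5 ± 2.15 CPM in syngeneic and 23.04 ± 3.21 CPM in control libraries and was called in no comparison. About 25.5% of its exon bases overlap the gene Gm26745 on the other strand, so its level is uncertain. Psmc5 and Psmd2 were the only other tested members called in no comparison; with the GC and length offset Psmc5 was called lower in allogeneic against control microglia (-0.26, edgeR adjusted p = 0.0168).

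Psma8, an alpha subunit known from the testis, was counted at a low level in every library. It had 12.9, 11.5, 9.29 and 19.4 CPM in allogeneic libraries, 11.7, 12.4, 8.46 and 8.19 CPM in syngeneic libraries and 4.36, 7.65, 3.39 and 5.95 CPM in control libraries. Allogeneic and syngeneic libraries overlapped and all lay above the control libraries. It rose by 0.94 in syngeneic against control microglia (SE 0.30, edgeR adjusted p = 0.0134), but with the GC and length offset the difference of 0.35 was not called. Psma8 is a close relative of Psma7 in sequence, and how reads shared between similar genes were counted is not given.

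**Figure D3:**
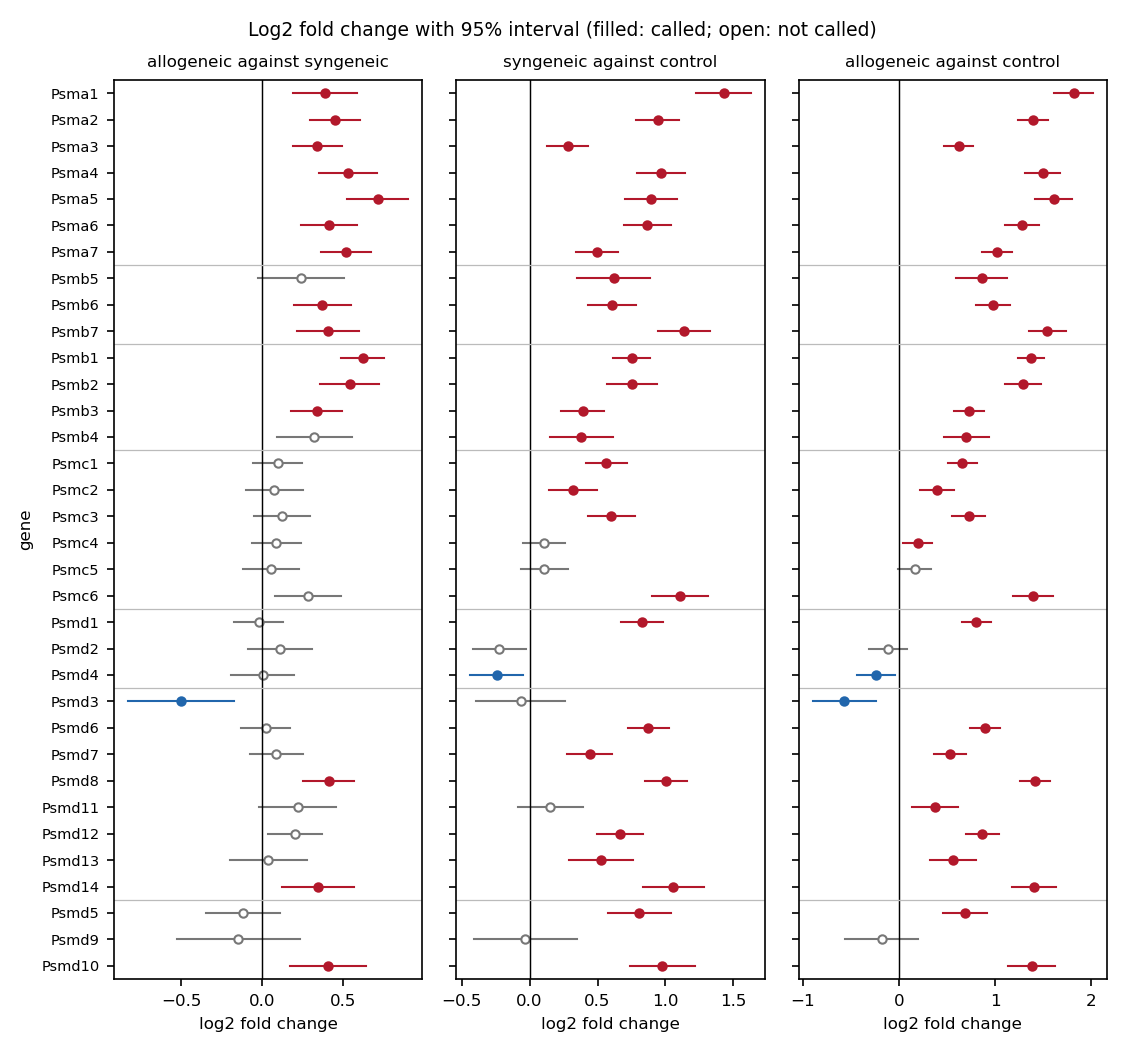
Log2 fold changes (horizontal axis, a panel per comparison with its own scale) of the same 34 genes from edgeR's quasi-likelihood fit, with 95% intervals; red is called higher, blue called lower and open not called. In the left panel the 7 alpha genes are all filled red and the 9 base genes all open, while in the middle panel 14 core genes are filled red.

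The counts for the core and for the regulatory particle stand side by side here, and the difference between the sub-complexes was not itself tested. The 14 core genes of the alpha and beta rings gave 12 calls higher in allogeneic against syngeneic microglia, with a median log2 fold change of 0.41, and the 17 genes of the base and lid gave 2 higher and 1 lower, with a median of 0.09. Over all genes 10.1% rose and 6.38% fell, so the base and lid counts lie near the share over all genes. In syngeneic against control microglia the core gave 14 higher of 14 (median 0.75) and the base and lid 11 higher and 1 lower of 17 (median 0.53). Over all genes 26.4% rose and 25.6% fell there. The GC and length offset turned the order of these medians. It gave 9 higher and 1 lower in the core (median 0.27) and 11 higher and 1 lower in the base and lid (median 0.33). With it, 23.9% of all genes rose and 22.3% fell. With the GC and length offset, 5 of the 14 core genes and 1 of the 17 base and lid genes rose in allogeneic against syngeneic microglia, with medians of 0.17 and -0.03, beside 8.94% of all genes. With library totals only, the counts were 6 of 14 and 1 of 17, and 1 of the 17 fell, beside 6.65% of all genes higher and 16.6% lower.

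The alpha ring summed to 2057, 1934, 2256 and 1910 CPM in allogeneic libraries, 1528, 1506, 1441 and 1373 CPM in syngeneic libraries and 873, 811, 821 and 828 CPM in control libraries. The beta ring summed to 1563, 1523, 1727 and 1415 CPM in allogeneic libraries, 1157, 1138, 1164 and 1080 CPM in syngeneic libraries and 762, 693, 704 and 693 CPM in control libraries. For both rings the 3 groups were fully separated. The base averaged 1681 ± 74.3 CPM in allogeneic, 1572 ± 54.7 CPM in syngeneic and 1204 ± 71.95 CPM in control libraries, and its allogeneic and syngeneic libraries overlapped. The lid averaged 1290 ± 53.99, 1127 ± 33.7 and 699 ± 47.8 CPM in allogeneic, syngeneic and control libraries (SD, n = 4 each), and its 3 groups were fully separated too. With library totals only, the log2 ratio of allogeneic to syngeneic means turned to -0.11 for the base and -0.0089 for the lid.

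Scaling a whole library does not change the ratios within it, but the GC and length offset was not applied to them. The sum of the core genes over that of the base and lid genes was 1.21, 1.19, 1.27 and 1.16 in allogeneic libraries, 1.02, 0.962, 0.949 and 0.921 in syngeneic libraries and 0.798, 0.811, 0.788 and 0.858 in control libraries, in 3 ranges that did not overlap. The base over the lid was 1.304 ± 0.0446 in allogeneic, 1.395 ± 0.0726 in syngeneic and 1.72 ± 0.0367 in control libraries; the allogeneic and syngeneic libraries overlapped and the control libraries lay above both. These ratios are of counts. The core transcripts are shorter, with a median annotated length of 1162.5 bases beside 1636 for the base and 1742.5 for the lid. With the offset, the median syngeneic against control log2 fold change was 0.27 for the core and 0.33 for the base and lid. The part of length in the steps between groups was not tested.

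**Figure D4:**
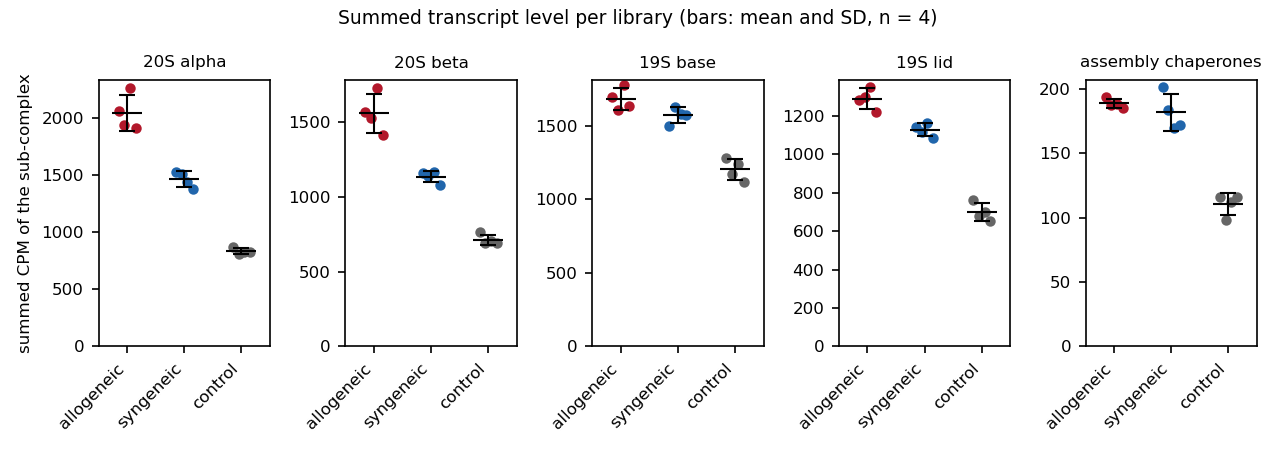
Summed CPM of each sub-complex (vertical axis from 0, a panel each with its own scale) in allogeneic, syngeneic and control libraries, with points for libraries and bars for the mean and SD (n = 4). The alpha and beta panels show 3 separate steps, while in the base panel the allogeneic and syngeneic points, at means of 1681 and 1572 CPM, overlap.

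Length and base composition moved with the differences, so they are given here for all 35 tested members. Across the members, the Spearman correlation of the allogeneic against syngeneic log2 fold change was -0.47 with transcript length and -0.34 with GC content. Across 12612 annotated genes it was -0.20 and -0.04. For syngeneic against control microglia, the correlation across the members was -0.17 with length and -0.58 with GC content, beside -0.07 and -0.30 across all genes. These correlations are across genes of the same libraries, which are not independent replicates. The median annotated transcript length of the members was 1541 bases, beside 2892 over all genes tested.

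**Figure D5:**
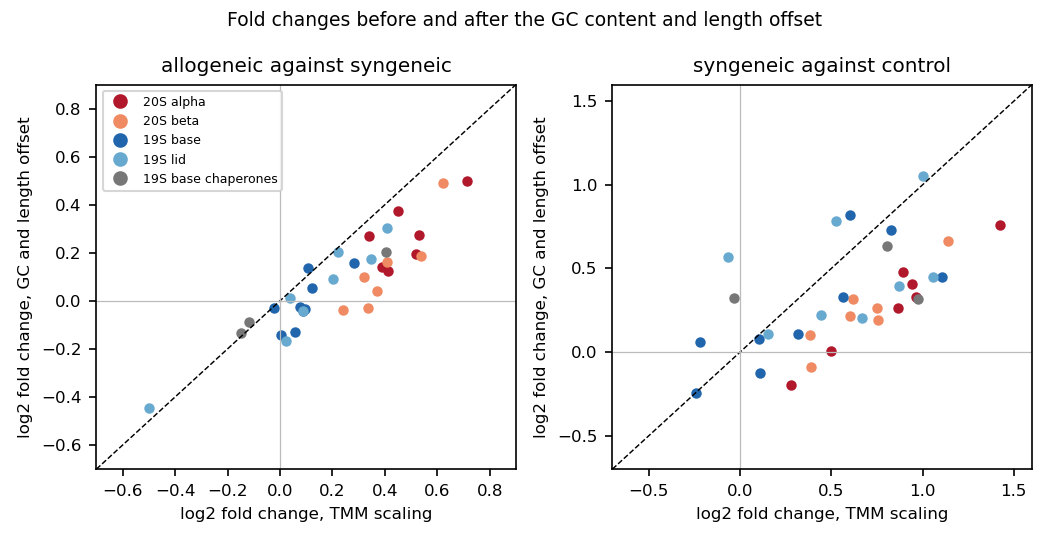
Log2 fold changes of the tested members (Psma8 is not drawn) before (horizontal axis) and after (vertical axis) the GC and length offset, with a dashed line of equality, for allogeneic against syngeneic (left) and syngeneic against control microglia (right). Most points lie below the line. In allogeneic against syngeneic microglia the median of all 35 tested members, Psma8 included, moves to 0.10, where it was 0.28 before the offset.

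Levels of different genes were compared per kilobase of annotated transcript. Psmb6 had the highest level in each group, at 411 ± 40.1 CPM per kilobase in allogeneic, 318 ± 12.3 in syngeneic and 209 ± 27.2 in control libraries (SD, n = 4 each). In allogeneic libraries Psmb2 followed at 384 ± 51.7 CPM per kilobase, which differed from Psmb6 by less than the spread, and then Psma7 at 340 ± 21.8. The 6 ATPases, which share a ring in equal numbers, lay within 1.64-fold of each other per kilobase in allogeneic libraries, 1.87-fold in syngeneic libraries and 2.77-fold in control libraries. Within the ring Psmc6 was lowest in every group, at 99.1 CPM per kilobase in allogeneic, 81.4 in syngeneic and 37.8 in control libraries. Psmd9 and Psma8 were lowest of the 35 tested members. The annotated transcripts used for Psma2 and Psma3 are 2911 and 2846 bases long, longer than those of the other alpha genes, so their levels per kilobase may be understated.

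All 3 immunoproteasome genes rose in allogeneic against syngeneic microglia, Psmb8 by 1.56, Psmb9 by 1.68 and Psmb10 by 1.16, and in syngeneic against control microglia by 0.35 to 0.49; in the second comparison the call of Psmb9 was lost without control 4 (edgeR adjusted p = 0.0518). Of the 5 activators and inhibitors of the core, 2 rose and 1 fell in allogeneic against syngeneic microglia (10.1% and 6.38% of all genes). The subunits Psme1 and Psme2 of the interferon-inducible PA28 cap rose by 1.47 and 1.41, while Psme3, the nuclear PA28 subunit, fell (-0.55, edgeR adjusted p = 0.0219). The call of Psme3 was lost without allogeneic 3 or 4 or syngeneic 3 or 4 (edgeR adjusted p = 0.0517 to 0.0789). Against control, Psme1, Psme2, Psme3 and Psme4 rose in syngeneic microglia, and the inhibitor Psmf1 fell (-0.54, edgeR adjusted p = 0.00691). Over all genes 26.4% rose and 25.6% fell there.

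Pomp, the chaperone that matures the core, had the largest difference of the 5 core assembly genes between syngeneic and control microglia. It was at 533, 558, 608 and 512 CPM in allogeneic libraries, 362, 368, 378 and 357 CPM in syngeneic libraries and 124, 106, 100.01 and 120.4 CPM in control libraries. The groups were fully separated, with 0.59 in allogeneic against syngeneic microglia (SE 0.077, edgeR adjusted p = 1.57e-05) and 1.70 in syngeneic against control microglia (SE 0.079, edgeR adjusted p = 1.1e-11). Psmg4, a partner in alpha ring assembly, rose by 1.08 in allogeneic against syngeneic microglia at low levels of 17.7 ± 1.999 CPM in allogeneic and 8.38 ± 0.779 CPM in syngeneic libraries, and was not called with the GC and length offset. Psmg1, Psmg2 and Psmg3, at -0.23, -0.0028 and -0.075, were not called in that comparison.

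Of 8 other genes tied to the 26S particle, 2 rose in allogeneic against syngeneic microglia (10.1% of all genes), and 4 rose and 1 fell in syngeneic against control microglia (26.4% and 25.6% of all genes). They include subunits of the lid and the base whose symbols fall outside the choice made above. Shfm1, the smallest lid subunit, rose by 0.53 in allogeneic against syngeneic microglia and by 1.06 in syngeneic against control microglia. Adrm1, a ubiquitin receptor of the base, had 57.1, 53.5, 64.1 and 60.7 CPM in allogeneic libraries, 53.6, 63.8, 72.4 and 67.9 CPM in syngeneic libraries and 149, 147, 155 and 131 CPM in control libraries. Control libraries lay above all others, and its syngeneic against control log2 fold change was -1.18 (SE 0.10, edgeR adjusted p = 3.21e-08). The deubiquitinase Usp14 and the thioredoxin-like Txnl1, both bound to the 19S particle, rose in syngeneic against control microglia by 1.16 and 1.43.

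None of the 8 shuttle and unfoldase genes was called in allogeneic against syngeneic microglia, where 16.5% of all genes were. In syngeneic against control microglia Rad23b and Ubqln1 rose while Ubqln4 fell, where 26.4% of all genes rose and 25.6% fell. Nfe2l1 encodes the factor that raises transcription of proteasome genes when proteasome activity is short. It had 24.7, 31.7, 33.2 and 30.1 CPM in allogeneic libraries, 25.1, 34.5, 42.6 and 28.1 CPM in syngeneic libraries and 41.9, 43.6, 40.4 and 22.5 CPM in control libraries, overlapping between groups, and was called in no comparison. Its relative Nfe2l2 rose by 0.73 in allogeneic against syngeneic microglia (SE 0.10, edgeR adjusted p = 2.26e-05), while in syngeneic against control microglia its difference of 0.092 was not called (edgeR adjusted p = 0.461). Ddi2, the protease that activates the Nfe2l1 product, was called lower in syngeneic against control microglia (log2 fold change -1.60, edgeR adjusted p = 0.0206) at low levels of 0.646 to 3.01 CPM in syngeneic and 3.13 to 6.72 CPM in control libraries.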

How the data were processed

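RNA-seq reads of 12 libraries of sorted microglia were counted per gene by the authors, who deposited 1 table of raw counts for 24328 symbols. The submitters' processing notes name Trimmomatic 0.36, STAR 2.5.2b and the build mm9; the sources used here do not give the counting tool, annotation, strand setting or handling of shared reads. Per the labels' protocols, RNA was isolated with the Picopure kit and libraries followed standard Illumina protocols; integrity was at least 8. Each library was a separate mouse. Exons of 8 members overlap those of another gene: Psma4, Psma5, Psmb7, Psmc3, Psmd1, Psmd3, Psmd9 and Psmd13. The overlap covers 10.1% of the exon bases of Psmd13 and 8.25% of those of Psmc3, on the other strand. For Psmd1 it includes 4.14% on the same strand, with Gm21972. A share of the reads of these members is uncertain. The members and gene lists were chosen with earlier results of these data known. The genes named are the members, with values in every library for the called member of smallest p in each direction per role and comparison and for the catalytic subunits, and up to 3 called genes of each other list; Nfe2l1, Psmb4, Psmd2 and the uncalled genes of other lists were named after their values were seen. The result of 1 of the other gene lists is not reported here.

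From the deposited counts, edgeR 4.0.16 in R 4.3.3 kept 12695 of 18018 genes with any count (filterByExpr, minimum count 10), scaled by TMM, and fitted all 12 libraries with group means (quasi-likelihood, robust; squared biological coefficient of variation 0.147). P-values were adjusted over all genes tested, with a call under 0.05; 95% intervals are 1.96 SE. Spearman correlations within groups were 0.975 to 0.984. Ratios of paired subunits used log2 of counts plus 0.5 with exact permutation tests. Transcript lengths and GC content came from GENCODE M21 (GRCm38) by symbol; the plan named RefSeq transcript lengths, which were not used. The files' build differs, so no coordinates are given except those of RefSeq promoter windows on GRCm38.p6. Intervals of levels cover counting error and the spread between 4 mice only.

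The fit was tested on simulated counts. The alternatives tried were scaling by RLE factors or by library totals only, testing without a filter or above 1 CPM in 4 libraries, DESeq2 1.42.0, limma-voom (limma 3.58.1), fits of only the compared groups, the replicate number as a block, a GC and length offset (loess span 0.3), both together, medians over members in place of sums, a pseudocount of 5 for the paired ratios, and each library left out.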

Additional observations from a re-analysis of the deposited data

Results flagged for a closer look

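In 174 groups of 4 values (the members, the other pathway genes named and the sums), 5 had a library far from the other 3 relative to the group's range; chance gives about 1 in 20. For Psmb2, control 1 stood at 143.9 CPM, with 130.3 to 132 CPM in the other control libraries. The beta ring sum was likewise high in control 1, at 762 CPM, with 693 to 704 CPM in the others. For Psme1, control 1 stood at 163 CPM, with 134 to 139 CPM in the others. For Psmc4, syngeneic 4 stood at 177 CPM, with 156 to 158 CPM in the other syngeneic libraries. For Psme2, control 2 stood at 95.9 CPM, with 117 to 121 CPM in the other control libraries.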

How the results depend on the processing

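The counts of members that rose stayed within 1.5 times their value under RLE factors, other filters, DESeq2, limma-voom, fits of only the compared groups, the replicate block and the omission of any 1 library. They did not in allogeneic against syngeneic microglia with library totals only (7, median 0.081) or with the GC and length offset (6, median 0.10; with the replicate block as well 5, median 0.10). In the other comparisons the median moved to 0.45 (syngeneic against control) and 0.49 (allogeneic against control) with library totals only, to 0.32 and 0.31 with the offset, and to 0.32 and 0.32 with offset and block. Leaving out 1 library gave medians of 0.18 to 0.30 in allogeneic against syngeneic and 0.58 to 0.70 in syngeneic against control microglia.

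The few calls lower were unstable. In allogeneic against syngeneic microglia the count was 0 with RLE factors, no filter, only the compared groups, the offset, and offset with block. For syngeneic against control microglia it was 0 with RLE factors, no filter, DESeq2 and the block, and 2 with library totals only and with the offset. In allogeneic against control microglia it was 1 with RLE factors, no filter, DESeq2, only the compared groups and the block, and 5 with library totals only. Leaving out 1 library gave 0 to 1, 0 to 1 and 1 to 2 in these comparisons.

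Some single genes changed sign. With library totals only, Psmc4 was -0.060, Psmc5 -0.058 and Psmd11 -0.015 in syngeneic against control microglia. Psmc4 was -0.17 and Psmc5 -0.21 in allogeneic against control microglia. In allogeneic against syngeneic microglia that scaling gave medians of -0.11 for the base genes and -0.057 for the lid genes. With TMM these medians were 0.088 and 0.15. With the offset, Psmc1, Psmc2, Psmc4, Psmc5, Psmd4, Psmd6 and Psmd7 turned negative in allogeneic against syngeneic microglia, though none was called. They were at -0.035, -0.026, -0.044, -0.13, -0.14, -0.17 and -0.041, in that order. With the offset, and then with offset and block, Psmb5 was -0.039 and -0.045 and Psmb3 -0.029 and -0.030 in the same comparison. The same pair of settings gave, for syngeneic against control microglia, -0.20 and -0.20 for Psma3, -0.087 and -0.088 for Psmb3, -0.13 and -0.13 for Psmc5, 0.062 and 0.068 for Psmd2, 0.57 and 0.57 for Psmd3, and 0.32 and 0.32 for Psmd9. In allogeneic against control microglia they gave -0.12 and -0.12 for Psmb3, -0.26 and -0.26 for Psmc5, 0.20 and 0.20 for Psmd2, 0.12 and 0.11 for Psmd3, and 0.19 and 0.18 for Psmd9. Leaving out 1 library gave -0.29 to 0.019 for Psmd9 and -0.071 to 0.0067 for Psmd1 in allogeneic against syngeneic microglia, and -0.12 to 0.0011 for Psmd3 and -0.11 to 0.037 for Psmd9 in syngeneic against control microglia.

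For the summed levels, library totals only gave log2 ratios, for allogeneic over syngeneic, syngeneic over control and allogeneic over control libraries, of 0.28, 0.64 and 0.92 for the alpha ring, 0.25, 0.50 and 0.76 for the beta ring, -0.11, 0.22 and 0.11 for the base, -0.0089, 0.52 and 0.51 for the lid, and -0.15, 0.55 and 0.40 for the chaperones. The median over members in place of the sum gave 0.89 and 1.39 for the alpha ring in syngeneic and allogeneic against control libraries, 0.37 and 0.98 for the beta ring in allogeneic against syngeneic and against control libraries, 0.39 for the base in allogeneic against control, 0.60 and 0.72 for the lid in syngeneic and allogeneic against control, and -0.12 for the chaperones in allogeneic against syngeneic libraries. The cause of these shifts was not tested.

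The replicate numbers did not pair the samples: deviations of same-numbered libraries from their group means correlated by -0.015 to 0.032. With the replicate block, 15 members rose in allogeneic against syngeneic, 28 in syngeneic against control and 29 in allogeneic against control microglia.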
